A study of Mus musculus with 18 samples.

Results

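This report describes the RNA-binding motif, SR and hnRNP protein genes of the developing mouse brain after lead exposure. The set holds the genes whose annotated symbol begins with Rbm followed by a digit or an x, with Srsf followed by a digit, or with Hnrnp, together with Srek1, Rnpc3 and Arglu1. By this rule 72 of the 18194 genes measured by probe sets with a single symbol were members, namely 40 Rbm genes, 10 Srsf genes, 19 Hnrnp genes and the 3 others. They were measured by 202 of 34958 such probe sets, with 23 members resting on 1 probe set, 49 on 2 or more, and Rbm39 on 12. Each gene was represented by its brightest probe set by mean RMA value, and 59 members passed the brightness filter, which kept 10916 genes. Another 7 symbols that match the rule, Rbm3, Rbm4, Rbm10, Hnrnpa3, Rbm31y, Rbm3-ps and Hnrnpa1l2-ps2, are named only by probe sets with several symbols and were not analysed here.

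Whole brains were taken at postnatal day 8 from Mt-KO (-/-), heterozygous (+/-) and C57BL/6J wild-type (+/+) pups, where Mt-KO is a metallothionein knockout. For each genotype 1 pool of 5 pups had received lead acetate at 50 mg/kg and 1 pool of 5 weight-matched pups saline, in 2 injections a day given 4 h apart on postnatal days 7 and 8, with harvest 6 h after the last. The 3 genotypes came from a final brother-sister cross after at least 7 backcross generations to C57BL/6J, and the labels describe males and females. Total RNA of each pool went to 1 array, which gave 6 arrays, with 1 array for each genotype under each treatment. Values are deposited RMA levels on the log2 scale, and a difference of 1 corresponds to a doubling. In such tissue pools, fewer cells of a type and less RNA per cell cannot be told apart.

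The proteins encoded by these genes bind pre-mRNA and mRNA. SR proteins carry RNA recognition motifs and an arginine- and serine-rich tail and mostly favour the use of exons they bind. The hnRNP proteins coat nascent transcripts and often oppose exon use, and RBM proteins are a mixed group that includes spliceosome components, splicing regulators and proteins of other RNA pathways. Many of these genes control their own transcripts through alternative exons that lead to decay, so that probe sets in different parts of a gene can read different transcripts. In brain they help to set the splicing programmes of neurons.

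The promoters of the 4 members below are shown because Rbm45, Hnrnpl, Srek1 and Rnpc3 had the widest ranges over the 6 pools. They are RefSeq sequences of GRCm38.p6, from 250 bases before to 50 bases after the annotated start, written along the gene's strand. Capitals mark matches, on either strand, to CCGGAAG (the core bound by ETS factors), GGGCGG (the GC box), CCAAT, or TGCACNC or TGCGCNC (the core of the metal response element, which the zinc-sensing factor MTF1 binds in metallothionein promoters).
Rbm45, chr2:76369734-76370033, plus strand: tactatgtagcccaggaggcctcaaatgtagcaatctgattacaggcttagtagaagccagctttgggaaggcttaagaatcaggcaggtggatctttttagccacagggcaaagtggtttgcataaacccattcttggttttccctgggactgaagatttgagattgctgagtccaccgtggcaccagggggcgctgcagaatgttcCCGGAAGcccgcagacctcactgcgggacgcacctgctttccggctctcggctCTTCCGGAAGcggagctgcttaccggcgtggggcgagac
Hnrnpl, chr7:28810640-28810939, plus strand: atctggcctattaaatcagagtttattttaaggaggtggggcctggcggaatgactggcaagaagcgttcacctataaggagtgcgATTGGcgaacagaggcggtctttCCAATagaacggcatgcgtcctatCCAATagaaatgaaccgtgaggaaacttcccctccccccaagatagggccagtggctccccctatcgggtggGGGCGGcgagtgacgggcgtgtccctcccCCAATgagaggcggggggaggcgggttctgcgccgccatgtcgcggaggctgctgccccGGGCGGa
Srek1, chr13:103774559-103774858, minus strand: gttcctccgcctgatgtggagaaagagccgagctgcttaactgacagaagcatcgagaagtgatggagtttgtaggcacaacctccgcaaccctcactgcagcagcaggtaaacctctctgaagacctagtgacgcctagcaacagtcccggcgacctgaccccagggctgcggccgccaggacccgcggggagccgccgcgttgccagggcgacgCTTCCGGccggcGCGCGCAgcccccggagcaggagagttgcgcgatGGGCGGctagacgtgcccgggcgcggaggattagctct
Rnpc3, chr3:113630100-113630399, minus strand: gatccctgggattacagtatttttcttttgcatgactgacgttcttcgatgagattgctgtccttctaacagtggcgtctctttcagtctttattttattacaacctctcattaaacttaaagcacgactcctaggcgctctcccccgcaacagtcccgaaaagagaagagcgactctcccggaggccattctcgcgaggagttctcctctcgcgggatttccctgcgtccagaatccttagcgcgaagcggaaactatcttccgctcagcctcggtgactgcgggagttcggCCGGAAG

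With the start base counted as 0, the Rbm45 promoter held the ETS core at -42 to -36, and at 11 to 17 and 14 to 20, where matches on opposite strands overlap. The Hnrnpl promoter held CCAAT 4 times, beginning at -164, -141, -117 and -16, and the GC box at -45 to -40 and 43 to 48. The Srek1 promoter held an ETS core at -34 to -28, a metal response element core at -22 to -16 and a GC box at 12 to 17. The Rnpc3 promoter held 1 ETS core, at 43 to 49. Promoters were found for 62 of the 72 members. Of these, 45.2% held the metal response element core on either strand, against 37.5% of the 8816 promoters of tested genes and 25.6% of all 27025 promoters. The ETS core was in 21.0% of the members' promoters, against 17.4% of those of tested genes and 9.12% of all. The GC box was in 59.7%, against 65.1% and 35.9%, and CCAAT in 50%, against 37.8% and 37.9%. The median ratio of observed to expected CpG was 0.89 in members, 0.77 in tested genes and 0.39 in all promoters, so the members' promoters were richer in CpG. A match to such short letters is a description and not a binding site.

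The arrays differed in ways that touch the members. Over the tested genes the median lead minus saline difference was 0.09 for Mt-KO, 0.15 for heterozygous and -0.18 for wild-type pups. It grew with brightness, and over the brightest 20% of tested genes it was 0.16 for Mt-KO, 0.27 for heterozygous and -0.26 for wild-type pups. Differences of members are therefore also given relative to genes of like brightness, as residuals from a smooth trend over all tested genes. The Gapdh 3' probe set exceeded its 5' probe set by 1.19 in wild-type saline and by 0.54 to 0.82 on the other 5 arrays. Mt1, a metallothionein, followed the genotype labels, at 11.68 to 11.71 in the Mt-KO pools, 12.45 to 12.87 in the heterozygous and 13.17 to 13.30 in the wild-type pools. The Y-linked Eif2s3y measured 6.50 in Mt-KO saline and 9.45 to 11.16 elsewhere, and Xist, which is expressed from the inactive X, measured 10.23 in Mt-KO lead and 11.91 to 12.75 elsewhere, so both Mt-KO pools stood apart in sex-linked transcripts, in opposite ways. Beside this the mean of 6 pituitary transcripts was 9.76 in heterozygous lead and 8.83 to 8.99 elsewhere. Neuron markers were bright in every pool, with a mean over 7 of 7 genes of 13.76 to 14.37, as fits brain tissue.

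The members were bright genes. Their median RMA level was 11.44, against 9.92 for all genes, and among tested genes it was 11.80, against 10.97. The brightness of a probe set is a property of its probes as well as of its transcript, so levels of different genes were not ranked as amounts. The brightest were hnRNP probe sets. Hnrnpk, a protein that binds C-rich RNA, ranged from 13.99 to 14.81 over the pools, Hnrnpdl from 13.75 to 14.40, and Hnrnpf, which binds runs of G, from 13.45 to 14.07. Hnrnpa2b1 lay between 13.36 and 13.78 and Hnrnpr between 13.16 and 13.87. Among SR proteins Srsf6 averaged 13.29, Srsf2 13.18 and Srsf5 13.16, and the dimmest, Srsf10, averaged 10.99. Among RBM genes Rbm5, a spliceosome-associated regulator, averaged 13.15 and Rbm39, a U2AF-related splicing factor, 12.20, whereas Rbm4b was the dimmest tested, at 9.65.

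The 13 members under the brightness filter were Rbm11, Rbm12b1, Rbm15, Rbm20, Rbm38, Rbm3os, Rbm44, Rbm46, Rbm46os, Rbm47, Rbm48, Rbmx2 and Rbmxl2, with mean levels of 6.43 to 9.37. Rbm20 is known as a splicing factor of heart muscle, and Rbm3os and Rbm46os are noncoding RNAs that entered by their symbols. All 13 were Rbm genes, so the Srsf and Hnrnp families were tested in full. Among tested members 36 main probe sets had a plain identifier and 11 the _a suffix for transcripts of 1 gene. The other 12 had the _s or _x suffix, Srek1 and Rnpc3 (_s) and Hnrnpa1 and Srsf1 (_x) among them, and may also read related transcripts.

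Most members varied little. The range over the 6 pools had a median of 0.41 in members, against 0.34 in all tested genes, and of 0.24 against 0.25 once each array was centred by brightness. Hnrnph3 was the steadiest, between 10.55 and 10.69. The widest ranges were those of Rbm45 (1.36), Rnpc3 (1.17), Hnrnpl (1.06), Srek1 (0.90) and Hnrnpk (0.82). The highest pool was wild-type saline for 28 of 59 members (47.5%), against 41.6% of all tested genes, and the lowest was Mt-KO saline for 22 members (37.3%), against 27.7%. Wild-type saline was thus the most frequent highest pool in members and in all tested genes, whereas the most frequent lowest pool was Mt-KO saline in members and wild-type lead (33.8%) in all tested genes.

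**Figure D1:**
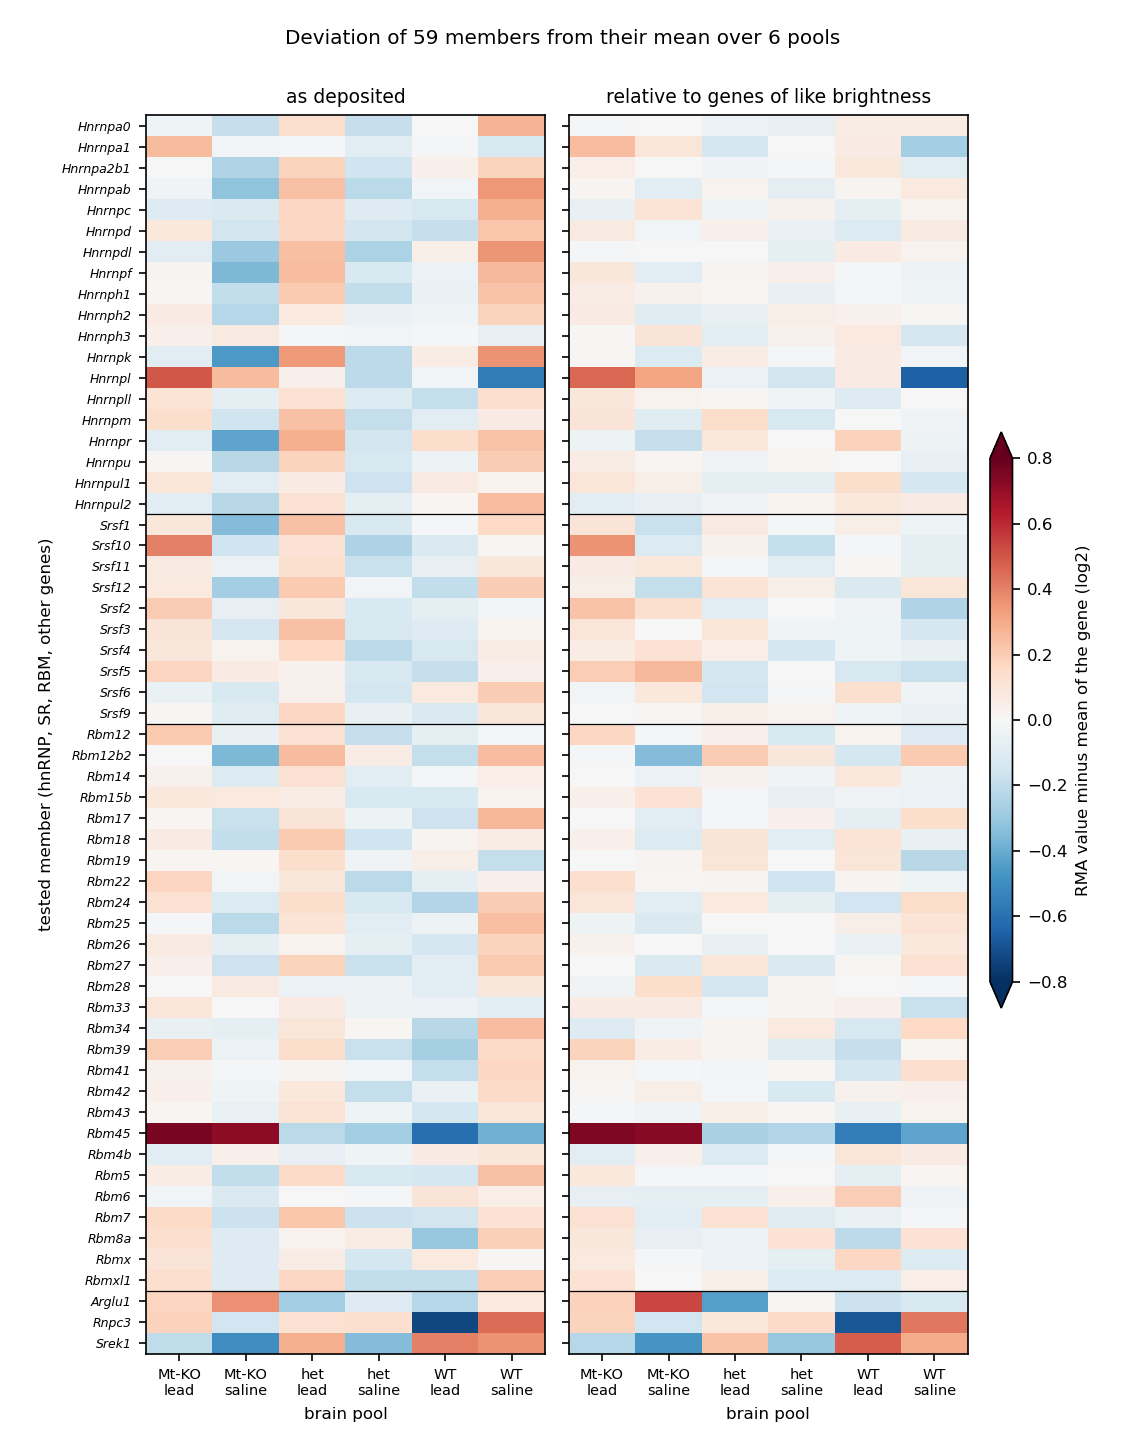
RMA level of each of the 59 tested members in the 6 pools, as the difference (log2) from the member's own mean over the pools, as deposited at left and relative to genes of like brightness at right, with colours limited to 0.8 either way. At left most hnRNP rows share 1 pattern, with Mt-KO saline low and wild-type saline high, which is largely gone at right, whereas Rbm45, Rnpc3, Srek1 and Hnrnpl keep theirs.

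Against wild-type, 3 members were called for Mt-KO by their brightest probe sets on deposited RMA values. On these probe sets Rbm45 and Hnrnpl were higher and Srek1 was lower. All 3 calls were lost with GC-RMA, quantile normalization or centring by brightness, where 0, 1 and 0 of 10916 genes were called. They were also lost with PLIER, where 68 genes were called. With treatment as a block, limma called 3 of 59 members at an adjusted p under 0.05, against 47 of 10916 genes (0.431%), of which 34 were higher (0.311%) and 13 lower (0.119%). The same 3 members had an unadjusted p under 0.05, as had 382 of all genes. With 1 array per combination, each p-value rests on what the additive fit left over, with 2 residual degrees of freedom, pooled over genes of like brightness.

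Rbm45, an RNA-binding protein of developing neurons that is found in TDP-43 inclusions in human neurodegeneration, lies on chromosome 2. It measured 10.65 in Mt-KO lead, 10.60 in Mt-KO saline, 9.67 in heterozygous lead, 9.62 in heterozygous saline, 9.28 in wild-type lead and 9.50 in wild-type saline. Both Mt-KO pools thus stood above the other 4, and the pools of a genotype lay close together. The fitted Mt-KO difference was 1.23 (SE 0.14), a 2.35-fold higher level (limma adjusted p = 2.75e-14), and it was called without any 1 of the 6 arrays, at 1.10 to 1.37. The size depended on how probes were summarised. With GC-RMA the levels were 11.93 and 11.84 in Mt-KO lead and saline, 11.58 and 11.49 in heterozygous lead and saline, and 11.47 and 11.53 in wild-type lead and saline, a fitted difference of 0.39 (adjusted p = 0.915). With PLIER the fitted difference was 0.22 (adjusted p = 0.999), and Mt-KO saline (10.50) stood below wild-type saline (10.53). Rbm45 has 1 probe set, so no second one could be compared.

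Hnrnpl, which binds CA-rich RNA and regulates exon inclusion, lies on chromosome 7. It measured 11.83 in Mt-KO lead, 11.58 in Mt-KO saline, 11.37 in heterozygous lead, 11.12 in heterozygous saline, 11.31 in wild-type lead and 10.77 in wild-type saline. The Mt-KO pools were the highest and did not overlap those of the other genotypes, and within each genotype the lead pool was above the saline pool. The Mt-KO difference was 0.66 (SE 0.17), a 1.59-fold higher level (limma adjusted p = 0.0307). It was 0.97 with GC-RMA (adjusted p = 0.747) and 0.69 with PLIER (adjusted p = 0.675), and it lost the call without either Mt-KO array or either heterozygous array, at 0.59 to 0.74. A second, dim probe set measured 7.85 to 8.09 and its Mt-KO difference was 0.08.

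Srek1, an SR-like protein that modulates other SR proteins, lies on chromosome 13. Its brightest probe set measured 10.10 in Mt-KO lead, 9.81 in Mt-KO saline, 10.59 in heterozygous lead, 9.96 in heterozygous saline, 10.71 in wild-type lead and 10.67 in wild-type saline. Both wild-type pools stood above the other 4, with heterozygous lead close to them. The Mt-KO difference was -0.73 (SE 0.15), a 1.66-fold lower level (limma adjusted p = 0.000678), but the other 4 probe sets of Srek1 went both ways, at 0.48, 0.21, -0.42 and -0.45. The probe set nearest in brightness measured 10.60 in Mt-KO lead, 10.48 in Mt-KO saline, 10.40 in heterozygous lead, 10.02 in heterozygous saline, 9.95 in wild-type lead and 10.19 in wild-type saline. It was highest in the Mt-KO pools, the opposite of the main probe set. The main probe set was at -1.24 with GC-RMA (adjusted p = 0.432) and -0.80 with PLIER (adjusted p = 0.0670), and its call was lost without either Mt-KO array or either heterozygous array, at -0.76 to -0.71. Averaged over the 5 probe sets the difference was -0.18 (adjusted p = 1), so a lower Srek1 level was not shown for the gene as a whole.

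**Figure D2:**
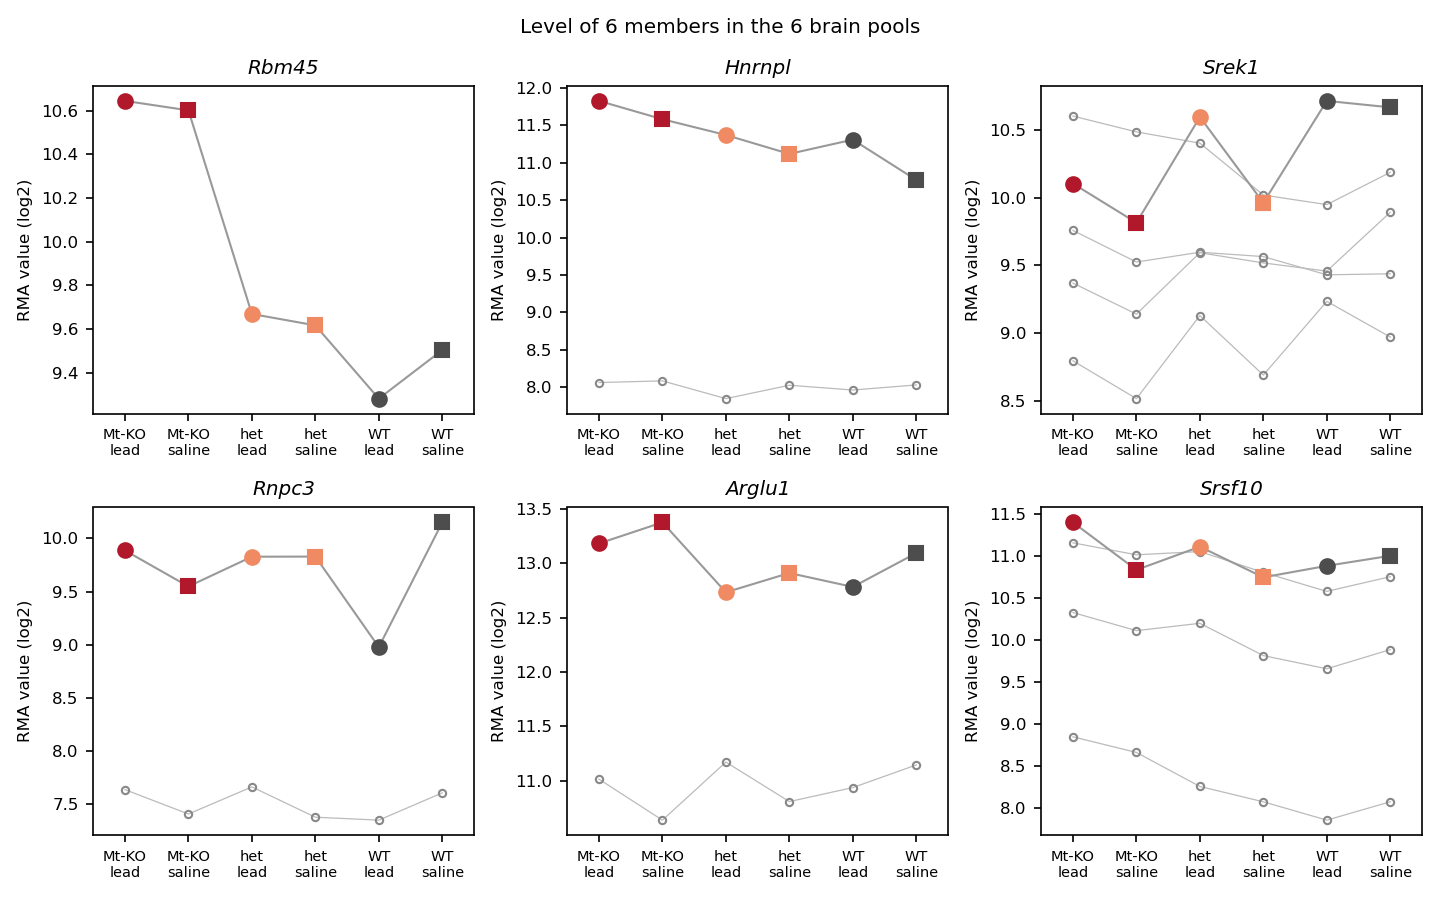
RMA level (log2) of Rbm45, Hnrnpl, Srek1, Rnpc3, Arglu1 and Srsf10 in each pool, with filled symbols for the brightest probe set (circles for lead, squares for saline, coloured by genotype) and open grey symbols for the gene's other probe sets. Rbm45 is at 10.65 and 10.60 in the Mt-KO pools and at most at 9.67 elsewhere, Rnpc3 is lowest in wild-type lead (8.98), and the probe sets of Srek1 run in opposite directions.

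Beyond the 3 called members, the Mt-KO coefficients of members had a median of -0.04, against -0.03 for all tested genes, and 29 of 59 lay above the median gene. The hnRNP genes had a median of -0.19 over 19 members, with Hnrnpk at -0.48 (SE 0.41), Hnrnpr at -0.44, Hnrnpdl at -0.39, Hnrnpab at -0.34, Hnrnpul2 at -0.29, Hnrnpf at -0.27, Hnrnpa0 at -0.25 and Hnrnpa2b1 at -0.23. Centred by brightness that median was 0.03. Hnrnpk measured 14.36 in Mt-KO lead, 13.99 in Mt-KO saline, 14.79 in heterozygous lead, 14.24 in heterozygous saline, 14.51 in wild-type lead and 14.81 in wild-type saline. Its values in Mt-KO and wild-type did not overlap, although the difference did not pass (adjusted p = 1). Centred by brightness Hnrnpk was at 14.47 in Mt-KO lead, 14.34 in Mt-KO saline, 14.51 in wild-type lead and 14.43 in wild-type saline, where the genotypes overlapped and the coefficient was -0.07. The mean over the 7 neuron markers had the same order, at 13.98 in Mt-KO lead, 13.76 in Mt-KO saline, 14.05 in wild-type lead and 14.37 in wild-type saline, and its part in the hnRNP values was not tested.

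The SR protein genes had a median Mt-KO coefficient of 0.01, or 0.12 centred by brightness, and none of 10 was called. Srsf6 was at -0.23, and Srsf5 at 0.19, Srsf10 at 0.17 and Srsf2 at 0.12 were the highest. The RBM genes had a median of 0.00. Rbm25, a splicing regulator linked to the U1 particle, was at -0.22 and Rbm12b2 at -0.21, whereas Rbm39 was at 0.13 and Rbm15b, Rbm12 and Rbm33 were each at 0.12. Hnrnpa1, a major hnRNP protein, was at 0.18. Arglu1, an arginine- and glutamate-rich splicing modulator and transcriptional coactivator, had the largest positive coefficient of those not called, 0.34 (SE 0.26). It measured 13.18 in Mt-KO lead, 13.38 in Mt-KO saline, 12.73 in heterozygous lead, 12.91 in heterozygous saline, 12.78 in wild-type lead and 13.09 in wild-type saline. Both Mt-KO pools were above the other 4, but a second Arglu1 probe set was at -0.21.

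Srsf10, an SR protein that represses splicing when dephosphorylated, had positive Mt-KO coefficients on all 4 of its probe sets. The coefficients were 0.17 on the brightest and 0.42, 0.45 and 0.79 on the others. On the brightest, Mt-KO saline (10.83) lay below wild-type lead (10.88) and wild-type saline (11.00), and only Mt-KO lead (11.40) lay above them. The dimmest, where the difference was largest, measured 8.84 in Mt-KO lead, 8.66 in Mt-KO saline, 8.25 in heterozygous lead, 8.07 in heterozygous saline, 7.85 in wild-type lead and 8.07 in wild-type saline, so the Mt-KO pools stood above the rest. The other probe sets of the members were not tested, and these values are a description. Srsf2, a core SR protein, was likewise positive on all 4 probe sets, at 0.12, 0.11, 0.41 and 0.95. Its dimmest measured 10.96 and 11.07 in Mt-KO lead and saline, against 10.02 and 10.11 in wild-type lead and saline.

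Other genes split between their probe sets. Rbm5 was at -0.12 on its brightest and at -0.61, 0.31, -1.12 and -0.36 on the others. Hnrnpr was at -0.44 on its brightest, whereas another probe set was at 0.69 and measured 9.93 in Mt-KO lead, 9.57 in Mt-KO saline, 9.59 in wild-type lead and 8.54 in wild-type saline, so its difference came mainly from the low wild-type saline value. Hnrnpa1 was at 0.18 on its brightest and at -0.29 and -0.87 on the others. The deposited values of Hnrnpk were lower in Mt-KO on all 4 probe sets, at -0.48 and at -0.35 to -0.13, whereas the brightest was at -0.07 once centred by brightness. Over the 124 other probe sets of tested members, 74 (59.7%) had the sign of the brightest in Mt-KO, and 51 (41.1%) had that sign and at least 0.5 of its size. The shares over all tested genes were 54.0% and 36.6% of 13978 other probe sets.

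**Figure D3:**
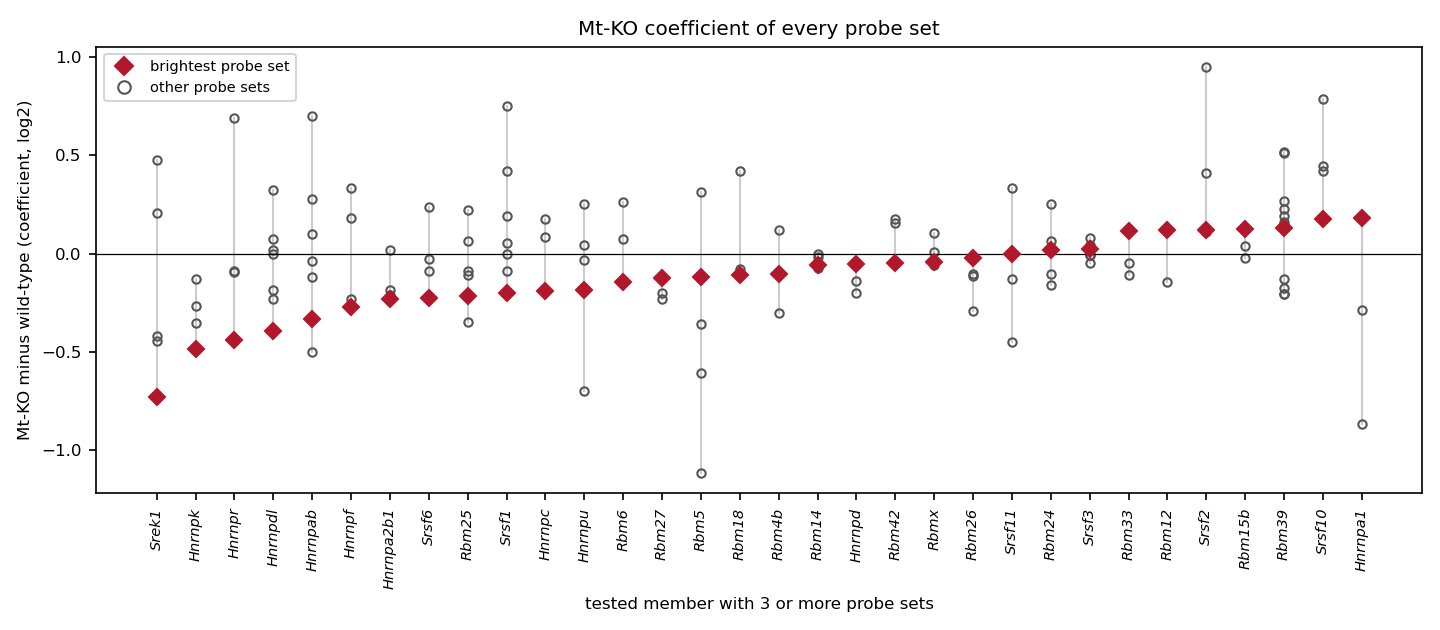
Mt-KO coefficient (log2, with treatment as a block) of every probe set of the tested members that have at least 3, with a red diamond for the brightest and open circles for the others. Srsf10 and Srsf2 lie above 0 on every probe set and Hnrnpk below, whereas Srek1, Rbm5 and Hnrnpr lie on both sides.

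In heterozygous brain no member was called against wild-type. The limma fit called 0 of 59 members and 13 of 10916 genes (0.119%), and at an unadjusted p under 0.05 it held 1 member, Srek1, and 131 genes. The wild-type arrays are those of the Mt-KO comparison, so the values are not independent of it. Srek1 was at -0.41 (SE 0.15, adjusted p = 1), on the values given above. Next lowest were Hnrnpdl at -0.20, Srsf6 at -0.19, Hnrnpa0 at -0.17, Hnrnpab at -0.15 and Hnrnpk at -0.14. The highest were Rnpc3 at 0.26, Rbm45 at 0.25, Hnrnpl at 0.21, Rbm12b2 and Rbm19 at 0.13 each, and Rbm8a at 0.10. For Rbm45 and Hnrnpl the heterozygous coefficient thus lay between 0 and that of Mt-KO. The median of members was -0.02, against 0.00 for all tested genes. Of the 124 other probe sets 62 (50%) had the sign of the brightest, against 54.5% over all tested genes.

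Lead against saline called no member. With genotype as a block, limma called 0 of 59 members and 13 of 10916 genes (0.119%), and the unadjusted p was under 0.05 for 4 members and 167 genes. The 4 members were Srek1, Rnpc3, Hnrnpl and Srsf10, each with a limma adjusted p of 1. The median lead coefficient of members was 0.07, against 0.02 for all tested genes, and 43 of 59 members lay above the median gene. Without either heterozygous array the members' median was -0.04, against -0.04 for all tested genes, and 32 of 59 lay above the median gene. Without either Mt-KO array it was 0.03, against -0.007, with 35 of 59 above. Without either wild-type array it was 0.21, against 0.12, with 44 of 59 above. The other probe sets had the sign of the brightest in 92 of 124 cases (74.2%), against 59.7% over all tested genes, and at least 0.5 of its size as well in 73 (58.9%), against 44.9%.

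The lead difference took opposite signs in different genotypes. In the Mt-KO pair 18 of 19 hnRNP genes, 10 of 10 SR protein genes and 24 of 27 RBM genes measured higher after lead, with medians of 0.23, 0.18 and 0.19. In the heterozygous pair 19 of 19, 10 of 10 and 24 of 27 did, with medians of 0.31, 0.27 and 0.19. In the wild-type pair 15 of 19 hnRNP genes, 10 of 10 SR protein genes and 23 of 27 RBM genes measured lower after lead, with medians of -0.24, -0.17 and -0.23. The members as a whole had medians of 0.21, 0.24 and -0.22, against 0.09, 0.15 and -0.18 for all tested genes. Relative to genes of like brightness the medians were 0.07 in Mt-KO, 0.04 in heterozygous and 0.02 in wild-type pups, so the opposite signs of the pairs were shared by bright genes in general.

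**Figure D4:**
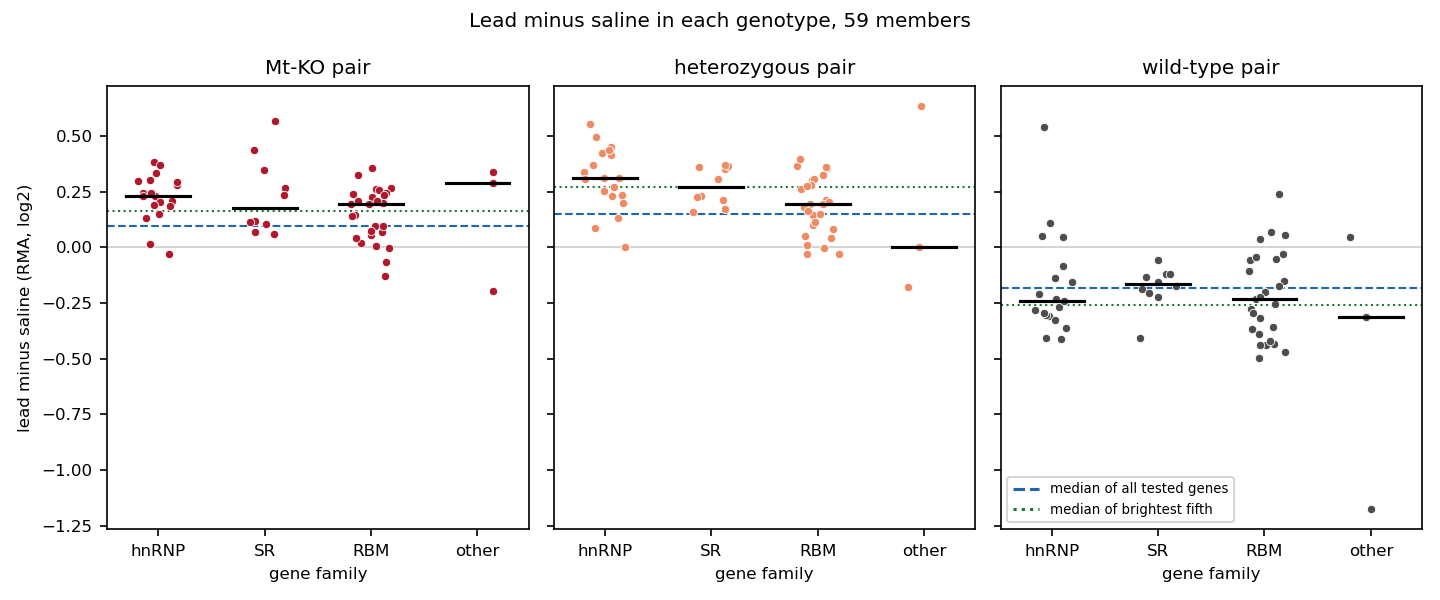
Lead minus saline difference in RMA level (log2) of each tested member in the Mt-KO, heterozygous and wild-type pairs, by family, with a black bar for the family median, a blue dashed line for the median of all tested genes and a green dotted line for that of the brightest 20%. For the Hnrnp, Srsf and Rbm families the medians are above 0 in the Mt-KO and heterozygous pairs and below 0 in the wild-type pair. They lie on the same side of 0 as both lines. The Srsf median in the wild-type pair and the Rbm median in the heterozygous pair lie nearer the line of all tested genes.

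As deposited, 7 members measured higher after lead in all 3 pairs, Hnrnpa1, Hnrnpl, Hnrnpul1, Rbm33, Rbm6, Rbmx and Srek1, against 933 of 10916 genes (8.55%). Another 3 were lower in all 3, Arglu1, Rbm28 and Rbm4b, against 425 genes (3.89%). Relative to genes of like brightness 14 members were higher in all 3 pairs, against 1425 genes (13.1%), and 3 were lower, Arglu1, Hnrnpc and Rbm34, against 1295 genes (11.9%). The 14 were Hnrnph1, Hnrnpk, Hnrnpl, Hnrnpm, Hnrnpr, Rbm12, Rbm14, Rbm18, Rbm22, Rbmx, Srek1, Srsf1, Srsf10 and Srsf3. These counts are descriptions of 3 pairs with 1 array a side.

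Hnrnpl had the largest lead coefficient, 0.35 (SE 0.14), with lead minus saline differences of 0.25 in Mt-KO, 0.25 in heterozygous and 0.54 in wild-type pups. Its second, dimmer probe set was at -0.09, and the mean over both at 0.13. Srek1 was at 0.32 (SE 0.12), with differences of 0.29 in Mt-KO, 0.63 in heterozygous and 0.05 in wild-type pups. Srsf10 was at 0.27 (SE 0.14) and measured 11.40 in Mt-KO lead, 10.83 in Mt-KO saline, 11.11 in heterozygous lead, 10.74 in heterozygous saline, 10.88 in wild-type lead and 11.00 in wild-type saline. Lead and saline pools overlapped for Srsf10, since wild-type lead lay below wild-type saline. Smaller positive coefficients were those of Hnrnpr (0.23), Hnrnpk (0.21), Srsf1 (0.20), Rbm18 and Hnrnpm (0.19 each), Rbm12 (0.17), Rbmx and Hnrnpa1 (0.16 each) and Hnrnpul1 (0.15). Rbmx, an X-linked hnRNP-like splicing regulator, measured 11.90 in Mt-KO lead, 11.70 in Mt-KO saline, 11.86 in heterozygous lead, 11.66 in heterozygous saline, 11.88 in wild-type lead and 11.81 in wild-type saline. On this probe set all 3 lead pools of Rbmx thus lay above all 3 saline pools, by a narrow margin (11.86 against 11.81). Of its other 3 probe sets only 1 had a positive lead coefficient, and their coefficients ran from -0.05 to 0.11.

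On the negative side stood Rnpc3 at -0.28 (SE 0.11) and Arglu1 at -0.23 (SE 0.21). For Rnpc3 the difference was 0.34 in Mt-KO, -0.00109 in heterozygous and -1.17 in wild-type pups, so the sign came from the wild-type pair, without which the coefficient was 0.17. Its second probe set was at 0.09. Arglu1 differed by -0.19 in Mt-KO, -0.18 in heterozygous and -0.31 in wild-type pups, but its second probe set was at 0.18. Rbm34 was at -0.12, Rbm8a at -0.10, Rbm41 at -0.09, and Rbm28, a nucleolar protein, at -0.08. Rbm4b, Hnrnpc, Rbm45, Rbm17, Rbm26 and Rbm43 lay between -0.06 and -0.01. Beside these values, the mean of 9 cerebellar transcripts was 11.83, 11.87 and 11.78 in the lead pools of Mt-KO, heterozygous and wild-type pups, against 11.43, 11.43 and 11.33 in their saline pools, and 2 of 9, En2 (0.55) and Pax6 (0.54), were called with lead. How tissue make-up relates to the members' lead values was not tested.

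The lead comparison turned on the wild-type pair. Without wild-type lead the median lead coefficient was 0.21 in members, against 0.12 in all tested genes. With all arrays these medians were 0.07 and 0.02. Leaving out wild-type saline instead gave the same lead coefficients. The wild-type array left in then sets only its own genotype term, so these 2 fits give 1 result for lead. In the Mt-KO comparison 33 members were called without wild-type lead, 2 higher and 31 lower, against 4380 genes (40.1%). Without wild-type saline 19 members were called, 18 higher and 1 lower, against 2429 genes (22.3%). The heterozygous comparison gave 17 members without wild-type lead, 1 higher and 16 lower, against 2421 genes (22.2%), and 17 without wild-type saline, all higher, against 2627 genes (24.1%). In these genotype comparisons the direction of most calls therefore depended on which wild-type array was left in. Leaving out any 1 array, the Mt-KO coefficient was 1.10 to 1.37 for Rbm45, 0.52 to 0.81 for Hnrnpl and -0.94 to -0.52 for Srek1. These members were picked by their calls on the same arrays, so the ranges are a description. Once each array was centred by brightness, limma called no gene at all, and so no member, for lead, for Mt-KO, for the heterozygote or for lead by allele number (0% each). At an unadjusted p under 0.05 there were then 10 members and 539 genes for lead, 9 and 954 for Mt-KO, 1 and 321 for the heterozygote, and 8 and 1747 for lead by allele number. Centred this way, the coefficients of the called members were 1.22 for Rbm45 (adjusted p = 0.0794), 0.68 for Hnrnpl and -0.74 for Srek1 in Mt-KO. Per allele they were -0.72 for Rnpc3, -0.34 for Rbm12b2 and -0.24 for Rbm8a. In that fit the prior had 4.12 degrees of freedom (5.32 with allele number), where it was infinite on the deposited values.

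In a fit with the number of intact alleles as a linear term, limma called the lead difference of Rnpc3, Rbm12b2 and Rbm8a as dependent on that number. These were 3 of 59 members, a share near that of all tested genes, 412 of 10916 (3.77%). No member was called with GC-RMA, with quantile normalization or centred by brightness, where 0, 1 and 0 of all tested genes were called. The 3 coefficients were smaller in size without wild-type lead. All 3 had lower lead differences with more intact alleles, as had 365 genes (3.34%). At an unadjusted p under 0.05 there were 13 members and 2194 genes. The median coefficient per allele was -0.21 in members, against -0.15 in all tested genes.

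Rnpc3, a protein of the U11/U12 particle that serves the minor spliceosome, lies on chromosome 3. It measured 9.89 in Mt-KO lead, 9.55 in Mt-KO saline, 9.83 in heterozygous lead, 9.83 in heterozygous saline, 8.98 in wild-type lead and 10.15 in wild-type saline. The wild-type lead pool was the lowest and the wild-type saline pool the highest of the 6. Its lead minus saline difference was 0.34 in Mt-KO, -0.00109 in heterozygous and -1.17 in wild-type pups, and the coefficient was -0.76 per intact allele (SE 0.11, limma adjusted p = 2.3e-09). Relative to genes of like brightness the wild-type difference was -1.11. With GC-RMA the coefficient was -0.77 (adjusted p = 0.374) and with PLIER -0.74 (adjusted p = 0.000256). Without wild-type lead it was -0.36 (adjusted p = 1). The second, dim probe set of Rnpc3 differed by 0.23 in Mt-KO, 0.29 in heterozygous and -0.26 in wild-type pups.

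Rbm12b2, on chromosome 4, measured 9.94 in Mt-KO lead, 9.59 in Mt-KO saline, 10.20 in heterozygous lead, 10.00 in heterozygous saline, 9.75 in wild-type lead and 10.19 in wild-type saline. The coefficient was -0.40 per allele (SE 0.11, limma adjusted p = 0.0144), from differences of 0.36 in Mt-KO, 0.19 in heterozygous and -0.44 in wild-type pups. It was -0.15 with GC-RMA (adjusted p = 0.750), -0.43 with PLIER (adjusted p = 0.101) and -0.14 over the mean of its probe sets (adjusted p = 0.350). Without Mt-KO lead it was -0.75. Its paralog Rbm12b1 was under the brightness filter, and the signals of these paralogs may not be separate. Rbm8a, also called Y14 and part of the exon junction complex, lies on chromosome 3. It measured 10.90 in Mt-KO lead, 10.66 in Mt-KO saline, 10.79 in heterozygous lead, 10.82 in heterozygous saline, 10.46 in wild-type lead and 10.95 in wild-type saline. The coefficient was -0.37 (SE 0.12, limma adjusted p = 0.0460), from differences of 0.23 in Mt-KO, -0.03 in heterozygous and -0.50 in wild-type pups. It was -0.61 with GC-RMA (adjusted p = 0.393) and -0.44 with PLIER (adjusted p = 0.138). For both genes the wild-type difference lay below those of the other genotypes, and both calls were lost without wild-type lead, at -0.05 and -0.25 (adjusted p = 1 each). Both were also lost without wild-type saline, at -0.51 and -0.38, and without Mt-KO saline, at -0.28 and -0.35. The Rbm8a call was lost without Mt-KO lead (-0.48) or heterozygous saline (-0.37) as well. Their second probe sets differed in the wild-type pair by 0.14 for Rbm12b2 and -0.07 for Rbm8a.

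Srsf12 (-0.38, adjusted p = 0.0676), Srsf10 (-0.34, adjusted p = 0.0715), Hnrnpf (-0.34, adjusted p = 0.396) and Rbm24 (-0.33, adjusted p = 0.0637) did not pass. Of the 59 coefficients 4 were positive, those of Hnrnpl at 0.15, Rbm19 at 0.12, Rbm4b at 0.05 and Hnrnph3 at 0.04, followed by Rbm6 at -0.02 and Rbm33 at -0.03. Without wild-type lead 0 members were called, with 3 at an unadjusted p under 0.05, against 17 genes called (0.156%), and without wild-type saline 1, Rnpc3, against 15 genes (0.137%). Without heterozygous lead there were 6 members, against 649 genes (5.95%), and without Mt-KO lead 5, against 1029 genes (9.43%). The Gapdh 3' excess, 0.57 in Mt-KO lead, 0.54 in Mt-KO saline, 0.82 in heterozygous lead, 0.68 in heterozygous saline, 0.73 in wild-type lead and 1.19 in wild-type saline, was likewise lower after lead in wild-type pups and not in the other genotypes, and its part in these calls was not tested.

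**Figure D5:**
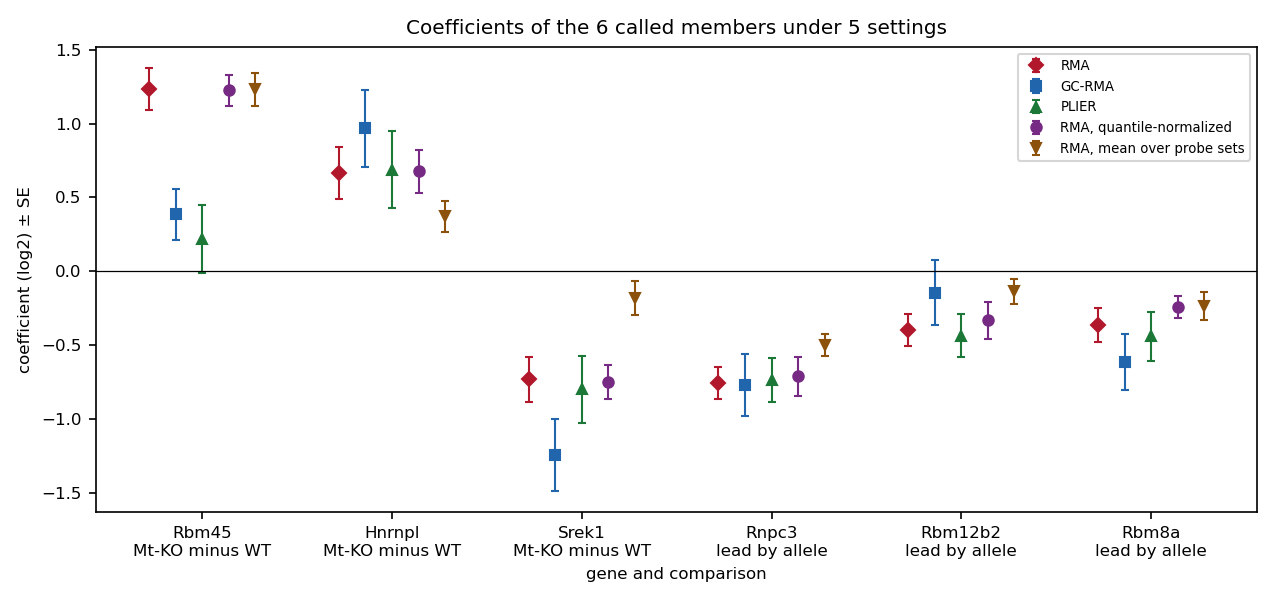
Coefficients (log2, with SE bars) of the 6 called members, for Mt-KO (Rbm45, Hnrnpl, Srek1) or per intact allele (Rnpc3, Rbm12b2, Rbm8a), from deposited RMA, GC-RMA, PLIER, quantile-normalized RMA and the average of all probe sets of a gene. Rbm45 is at 1.23 with RMA but 0.39 with GC-RMA and 0.22 with PLIER, whereas Rnpc3 is between -0.77 and -0.50 in all 5.

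Other genes of the splicing pathway were counted for comparison. Of the core spliceosome list 39 of 44 genes were tested. None was called for lead, Mt-KO or the heterozygote, and 2 had lower lead differences per allele, the Sm core gene Snrpd3 (-0.48, limma adjusted p = 0.0162) and the U2 particle gene Snrpa1 (-0.39, limma adjusted p = 0.0339). Of the minor spliceosome list, to which Rnpc3 is related by function, 0 of 6 tested genes were called in any limma comparison, and Zcrb1 was nearest, at -0.35 per allele (adjusted p = 0.0739). Scnm1, a factor for introns of the minor class, was at 0.35 in Mt-KO (adjusted p = 0.981) and -0.26 with lead (adjusted p = 1). Among 10 kinases and transport factors of SR proteins 1 was called, Clk1, which phosphorylates SR proteins. Clk1 measured 11.77 in Mt-KO lead, 11.58 in Mt-KO saline, 11.997 in heterozygous lead, 11.63 in heterozygous saline, 10.99 in wild-type lead and 11.94 in wild-type saline, a coefficient of -0.57 per allele (limma adjusted p = 0.00161). As for Rnpc3, the wild-type lead pool was the lowest.

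Of 26 SR-related proteins, 26 neuronal splicing regulators and 5 genes of nonsense-mediated decay, limma called none in the 4 comparisons. Msi1, an RNA-binding protein of neural progenitors, had the lowest adjusted p of the neuronal regulators in Mt-KO, at 0.57 (adjusted p = 0.235). Ptbp1, a repressor of neuronal exons, had it for lead by allele number, at 0.53 per allele (adjusted p = 0.108). Cirbp, a cold-inducible RNA-binding protein, was at 0.12 with lead and -0.05 in Mt-KO and was not called. Among 8 nuclear long noncoding RNAs 1 was called, Malat1, a transcript of nuclear speckles, where SR proteins are stored. Malat1 measured 11.03 in Mt-KO lead, 10.25 in Mt-KO saline, 10.87 in heterozygous lead, 10.74 in heterozygous saline, 11.04 in wild-type lead and 12.04 in wild-type saline. Its fitted coefficient was -0.90 in Mt-KO (limma adjusted p = 3.17e-05) and -0.73 in the heterozygote (limma adjusted p = 0.0105). The lead pools of all genotypes lay between 10.87 and 11.04, so both coefficients came mainly from the saline pools, with wild-type saline the highest pool. The lead difference of Malat1 was lower with more intact alleles (-0.89 per allele, limma adjusted p = 2.32e-10).

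Of the members, 5 lie on the X chromosome, Hnrnph2, Rbm3os, Rbm41, Rbmx and Rbmx2, and 3 of them were tested. None was called. Hnrnph2 measured 12.64 in Mt-KO lead, where Xist was low, and 12.34 in Mt-KO saline, where Eif2s3y was low, against 12.52 to 12.75 elsewhere. Rbm41 measured 9.89 in Mt-KO lead and 9.84 in Mt-KO saline, against 9.66 to 10.02 elsewhere, and Rbmx 11.90 and 11.70 in these pools, against 11.66 to 11.88 elsewhere. Hnrnph2 thus had its lowest value in Mt-KO saline, as had 22 of the 59 tested members in all.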

How the data were processed

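RNA pools of mouse brain were measured on 6 Affymetrix arrays, and the 18 deposited columns are the authors' 3 summaries of those same arrays, so only 1 summary entered a fit at a time. The submitters' processing notes name Partek, RMA, GCRMA and PLIER, without versions. Deposited RMA and GC-RMA columns hold log2 levels, and deposited PLIER columns hold linear intensities, used as log2(value + 16). Per the labels the labelling kit is one for whole-transcript arrays, although the probe set names belong to a 3' array.

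The upper 60% of genes by mean RMA, 10916 genes, were tested with limma 3.58.1 under R 4.3.3. The additive fit had genotype and treatment, and a further fit had treatment, the number of intact alleles and their product, both with 2 residual degrees of freedom. Tests were two-sided, with a variance trend in eBayes and Benjamini-Hochberg adjustment over all genes tested at 0.05. The estimated prior was infinite, so every gene was given the spread usual at its brightness. The fits were tested on simulated data with known differences, independent noise and no shift shared within an array. That test cannot vouch for the p-values here, since these arrays differ by shifts shared between genes. Centring by brightness subtracted, on each array, a lowess curve (span 0.2) over mean RMA. The number of arrays limits the precision, and with 1 pool per combination the spread between pools was not measured apart from departures from the fits.

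The members and all gene lists were chosen with earlier results of these data known. Genes were named by a rule, namely members past the threshold in any fit, the 12 largest coefficients each way for lead and Mt-KO and the 6 largest each way for the other fits, the 5 brightest and 5 widest-ranging members, members under the filter, and up to 3 genes per list. Members shown for their other probe sets, those given by family level, and the X-linked ones were chosen after their values were seen. Alternatives were GC-RMA, PLIER, quantile normalization, arrays centred on their medians, no filter, the upper 40%, the mean over probe sets, no trend, no block, a threshold of 0.10, leaving out arrays or pairs and, added after seeing the data, centring by brightness.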

Additional observations from a re-analysis of the deposited data

Results flagged for a closer look

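By the product term of treatment and allele number, limma called the lead difference of 3 of 59 members as dependent on allele number. This share was near that of all tested genes, 412 of 10916 (3.77%). The coefficients per allele were -0.76 for Rnpc3 (adjusted p = 2.3e-09), -0.40 for Rbm12b2 (adjusted p = 0.0144) and -0.37 for Rbm8a (adjusted p = 0.0460). Without the wild-type lead array none passed, at -0.36, -0.05 and -0.25. Rnpc3 passed without any other single array. Rbm12b2 was also lost without wild-type saline or Mt-KO saline, and Rbm8a without wild-type saline, either Mt-KO array or heterozygous saline.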

How the results depend on the processing

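The Mt-KO count of 3 was 0 with GC-RMA, quantile normalization and centring by brightness, where 0, 1 and 0 of all tested genes were called. It was also 0 with PLIER, where 68 genes were called, against 47 in the main fit. It was 3 at a threshold of 0.10. It was 1, Rbm45, with arrays centred on their medians, no filter, the mean over probe sets, no trend or no treatment block. It was also 1 with the upper 40%, but there the member was Hnrnpl. It was 1 to 33 leaving out arrays. The count of 3 for lead by allele number was 0 with GC-RMA, quantile normalization and centring by brightness, where 0, 1 and 0 genes were called. It was also 0 with the upper 40%, where 99 genes were called. It was 1, Rnpc3, with PLIER, arrays centred, the mean over probe sets and no trend, where 142, 20, 508 and 79 genes were called. With no filter it was 2, Rnpc3 and Rbm12b1, a member that the main filter left out. At a threshold of 0.10 it was 6. It was 0 to 6 leaving out arrays. The lead and heterozygous counts of 0 were 0 in every other setting run, and 0 to 26 and 0 to 17 leaving out arrays. Rbm45 kept its call in 12 of 16 alternatives, Rnpc3 in 11 of 15 and Hnrnpl in 4 of 17. Srek1 kept it in 3 of 16, Rbm12b2 in 4 of 15 and Rbm8a in 2 of 16. No coefficient of these 6 changed sign. These tallies do not measure robustness. The threshold of 0.10 reuses the main fit, so every call is kept there by construction. Leaving out a heterozygous array does not change the Mt-KO and per-allele coefficients. The cause of the changes between settings was not tested. The stricter filter leaves out dim members. Every fit without an array has 1 residual degree of freedom, whichever array is left out. The prior for lead had 19.3 degrees of freedom without wild-type lead and 19.5 without wild-type saline. It was infinite without any 1 of the other arrays. The lead fit pairs the arrays by genotype, and without that block it also called 0 members. The labels carry no replicate numbers.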
